A study of Arabidopsis thaliana with 12 samples.

Results

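The loci described here lie around the centromere of chromosome 2 of *Arabidopsis thaliana*. They are all genes and isoform models with a locus number from AT2G04000 to AT2G13999, apart from AT2G05070, AT2G05100, AT2G06002, AT2G06520 and AT2G13860, and an isoform suffix was ignored. The rule uses no measured value. It takes 1229 of the 34133 listed rows, which stand for 1150 of 33559 loci, and each row is 1 gene or 1 isoform model with its own expression value. By the TAIR10.1 annotation these loci run from position 1267762 to position 5881534. Of the 1229 rows, 382 are protein-coding, 796 are pseudogenes (where this annotation also places transposable element genes), 21 are tRNAs, 15 are other RNAs and 15 have no match in the annotation.

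Polyadenylated RNA of seedlings was sequenced at an age of 10 days. The plants were of ecotype Columbia and grew on MS agar, at 23 °C during 16 h of light and at a lower temperature during 8 h of dark. The 4 genotypes were the wild type (WT), *brat1* (*brat1-1*, a T-DNA insertion in AT1G05910), *nrpe1* (*nrpe1-11*) and the *brat1nrpe1* double mutant that carries both alleles. Each genotype had 3 replicates, so there were 12 libraries. Each mutant genotype rests on 1 allele per gene. Whole seedlings were used, in which fewer cells of a type and less RNA per cell cannot be told apart. The values are FPKM, fragments scaled by transcript length and by the mapped total of the library.

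Pericentromeric heterochromatin in *Arabidopsis* is dense in transposons and their remnants, and most of it is packed with DNA methylation and histone marks that keep transcription low. NRPE1 is the largest subunit of RNA polymerase V, whose transcripts guide RNA-directed DNA methylation (RdDM) to its targets. BRAT1 is a bromodomain protein with an ATPase domain that the study followed as an anti-silencing factor. Expressed genes in such regions sit among silent repeats.

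The 250 bases before the annotated start are shown for 5 of the members that were higher in *nrpe1* than in the WT, as the sequence next to a start is where promoter methylation is found. The sequences are those of TAIR10.1 and are written 5′ to 3′ on the strand of the gene, with each CG dinucleotide, the symmetric site of DNA methylation, in capitals. AT2G04460 is preceded by chr2:1549000-1549249 on the minus strand, AT2G04670 by chr2:1636085-1636334 on the minus strand, AT2G04135 by chr2:1392939-1393188 on the minus strand, AT2G10980 by chr2:4336023-4336272 on the plus strand and AT2G13770 by chr2:5736320-5736569 on the plus strand. None of these 5 windows overlaps another annotated gene.
AT2G04460: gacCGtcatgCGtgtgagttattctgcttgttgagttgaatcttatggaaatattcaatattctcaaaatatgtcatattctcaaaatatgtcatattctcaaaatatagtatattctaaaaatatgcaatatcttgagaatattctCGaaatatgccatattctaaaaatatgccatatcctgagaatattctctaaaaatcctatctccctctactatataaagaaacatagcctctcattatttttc
AT2G04670: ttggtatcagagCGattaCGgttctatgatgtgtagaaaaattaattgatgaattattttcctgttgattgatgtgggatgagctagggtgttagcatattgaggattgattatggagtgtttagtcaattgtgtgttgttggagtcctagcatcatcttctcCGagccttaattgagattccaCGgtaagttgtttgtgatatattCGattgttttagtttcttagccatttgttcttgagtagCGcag
AT2G04135: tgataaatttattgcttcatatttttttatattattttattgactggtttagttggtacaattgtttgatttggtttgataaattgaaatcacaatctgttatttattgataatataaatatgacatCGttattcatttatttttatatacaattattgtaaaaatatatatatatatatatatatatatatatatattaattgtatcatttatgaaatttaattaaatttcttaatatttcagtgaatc
AT2G10980: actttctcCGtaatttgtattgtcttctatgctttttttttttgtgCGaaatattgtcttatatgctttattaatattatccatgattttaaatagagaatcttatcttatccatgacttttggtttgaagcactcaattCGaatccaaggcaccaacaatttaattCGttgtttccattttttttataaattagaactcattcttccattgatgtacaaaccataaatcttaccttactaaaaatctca
AT2G13770: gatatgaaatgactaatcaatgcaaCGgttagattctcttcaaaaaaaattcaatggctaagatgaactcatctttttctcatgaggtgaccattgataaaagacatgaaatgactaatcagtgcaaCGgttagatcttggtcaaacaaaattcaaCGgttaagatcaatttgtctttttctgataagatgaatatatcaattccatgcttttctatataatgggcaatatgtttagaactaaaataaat

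The 5 windows held 3, 6, 1, 4 and 3 CG dinucleotides, in the order shown. CG was counted in the window itself, and as CG reads the same on both strands no second search was needed. Of the 37897 windows of this length before nuclear genes, 96.4% held at least 1 CG, and the median was 5. A median of 5 was also found for the 382 protein-coding loci of this region, and of 6 for its 717 pseudogene loci. The window of AT2G04670 was therefore above the median of all genes and that of AT2G04135 was among the poorest, as 96.4% of all windows held at least as many CG. The CG count is a property of the reference sequence and methylation was not analysed here.

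The 4 replicate 1 libraries stood apart from the others in every genotype. Over the 11453 rows of the genome with a mean FPKM of at least 10, the SD of the log2 difference between replicates 2 and 3 was between 0.257 and 0.313. Between replicate 1 and either of the others it was between 1.19 and 1.24. The read summary of the study also gives replicate 1 more mapped reads. A value of 0 need not mean absence of RNA, as all 146 mitochondrial and 133 chloroplast rows were listed at 0 throughout, so members with a 0 are given library by library. Markers of green tissue were high (*RBCS1A* from 13224 to 20245 FPKM), those of roots were present (*PYK10* from 537.8 to 1386), and those of flowers and mature seeds stayed at or below 3.71 in all libraries. *BRAT1* had an FPKM of 11.0, 11.4 and 11.1 in the WT and 3.44, 2.96 and 3.15 in *brat1*, and *NRPE1* (AT2G40030) had 5.01, 4.14 and 4.16 in the WT and 1.42, 1.32 and 1.29 in *nrpe1*. In *brat1nrpe1* both genes were low, at 2.67 to 3.11 for *BRAT1* and 1.02 to 1.10 for *NRPE1*.

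Most of the region was silent in all genotypes. A row was counted as on in a genotype when its FPKM was at least 0.5 in each of the 3 libraries. By this count 175 of the 1229 rows (14.2%) were on in the WT, 174 in *brat1*, 175 in *nrpe1* and 168 in *brat1nrpe1*. Of the 32904 other rows of the genome, 58.9% were on in the WT. The same 162 rows were on in all 4 genotypes, 1044 were on in none, and 23 were on in some genotypes only. All 12 libraries listed 0 for 698 rows (56.8%), against 21.5% of the other rows.

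Rows of different classes were on at different shares. Pseudogenes made up 64.8% of the rows here and 14.0% elsewhere, and they were on in the WT at like shares, 3.27% here and 3.51% elsewhere. Protein-coding rows were on less often, with 37.4% of 382 here against 71.9% of 26313 elsewhere. Of the 15 rows of other RNAs 6 were on in the WT, and of the 21 tRNA rows 0 were on. Isoform models added few expressed rows, as 57 of the 79 suffixed rows of loci with 2 or more rows were at 0 throughout. A second, near-identical genomic copy (98% identity over at least 100 bases) was found for 245 members, whose values are uncertain because only uniquely mapped reads were kept.

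Along the chromosome the share on was lowest in the inner stretches on either side of an insertion of mitochondrial DNA. From AT2G04000 to AT2G04999, 56 of 142 rows (39.4%) were on in the WT, and from AT2G05000 to AT2G05999, 30 of 147 (20.4%). The share was 9.69% of 227 rows from AT2G06000 to the insertion of mitochondrial DNA. Beyond that insertion, up to AT2G12999, 24 of 457 rows (5.25%) were on. It was higher again from AT2G13000 to AT2G13999, with 25 of 128 rows (19.5%). The share of pseudogenes in these stretches ran the other way, from 35.9% in the first to 82.1% between the insertion and AT2G12999. In *nrpe1* the number on in these stretches was 56, 30, 22, 25 and 23, each within 2 of the WT. The insertion itself departs from this relation. It had 18 of 128 rows (14.1%) on in the WT and the lowest share of pseudogenes, 34.4%.

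**Figure D1:**
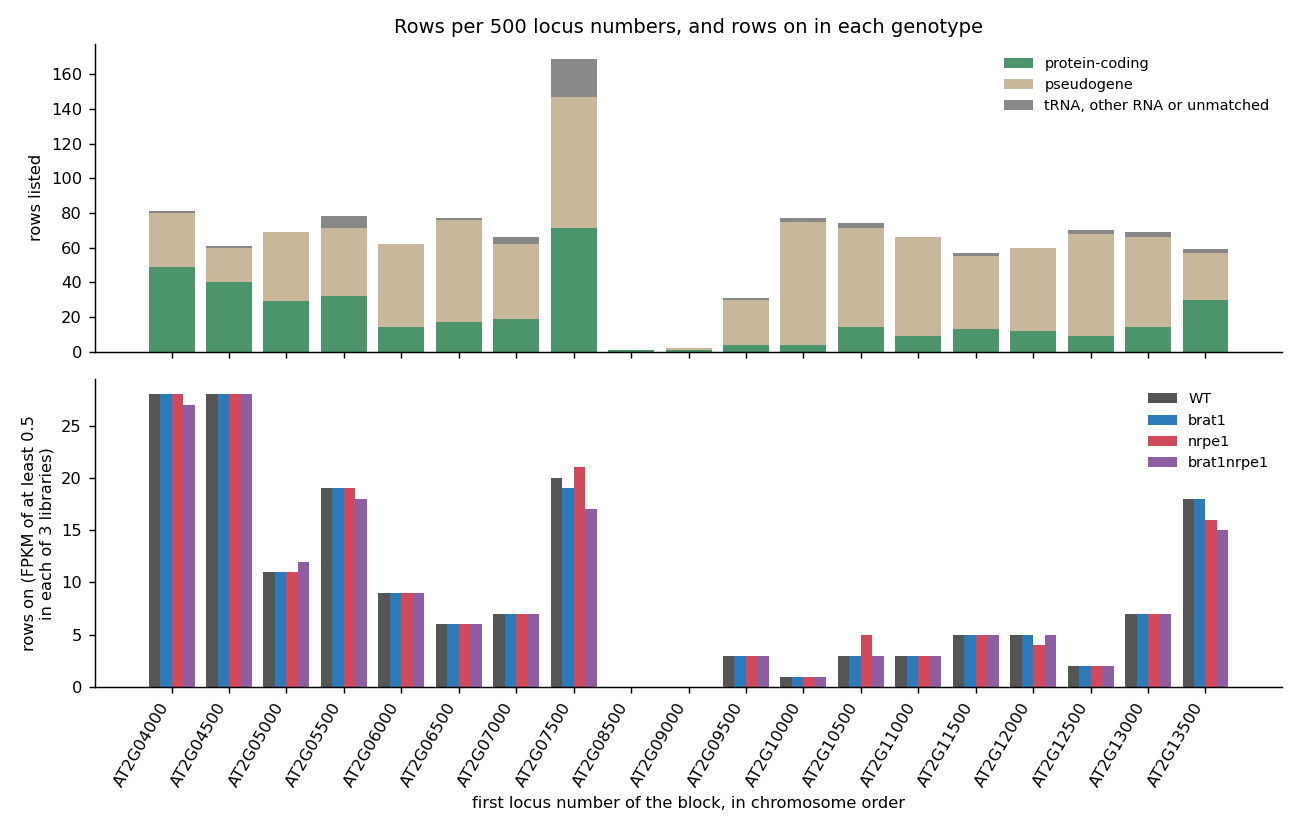
Upper panel, the number of rows in each block of 500 locus numbers by annotated class. Lower panel, the number of these rows on in each of the 4 genotypes, on an axis from 0. The bars of the 4 genotypes are nearly level in every block, and the blocks richest in pseudogenes hold few rows that were on, such as 1 of 77 rows from AT2G10000 to AT2G10499.

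Most of the 23 rows on in some genotypes only were not below 0.5 in all libraries of the others. For 21 of them at least 1 library of a genotype counted as off was itself at or above 0.5. In 12 of the 23, the row lies in the mitochondrial insertion. Among the 4 rows on in *nrpe1* alone were AT2G04135, AT2G10921 and AT2G10980, which also passed the test of *nrpe1* against the WT. AT2G04480, a protein-coding gene, was on in the WT and *brat1* but not in *nrpe1* or *brat1nrpe1*. Its FPKM was 1.16, 1.43 and 0.751 in the WT and 0.847, 0.222 and 0.454 in *nrpe1*. These groups overlap, and AT2G04480 did not pass the threshold. It passed with the replicate block (log2 difference -1.09, limma adjusted p = 0.19) and without replicate 1 (-1.43).

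A few genes of the region were strongly expressed. The highest mean over the 12 libraries, 1190 FPKM, was that of AT2G10940, which encodes a protein of the lipid-transfer and seed storage albumin superfamily. Its FPKM was 2393, 649 and 674 in the WT and 2144, 705 and 693 in *nrpe1*, so that replicate 1 was high in both. *GRP-3* (AT2G05520), a glycine-rich cell wall protein, followed, and its mean ± SD (n = 3) was 780 ± 39.4 for the WT, 888 ± 79.4 for *brat1*, 732 ± 6.13 for *nrpe1* and 975 ± 145 for *brat1nrpe1*. *AGT* (AT2G13360), the peroxisomal alanine:glyoxylate aminotransferase of photorespiration, had 810 ± 105 in the WT and 789 ± 176 in *nrpe1* (SD, n = 3 each). Next came *GRP9*, *GRP3S*, the ribosomal S17 family gene AT2G05220, the xyloglucan-modifying enzyme gene *XTH4* and AT2G05310, with means between 210 and 545 FPKM. Also among the 10 highest were the tRNA rows AT2G07764 and AT2G07748, which rest on replicate 1 alone. None of these 10 passed the threshold in any comparison.

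A copy of the mitochondrial genome inserted in the nuclear chromosome lies within this region. Members that match mitochondrial DNA span positions 3239693 to 3507323 of chromosome 2, a stretch of 267631 bases with 128 rows, of which 105 match the mitochondrial genome (98% identity over at least 100 bases). Of these rows, 63 are protein-coding, 44 are pseudogenes and 21 are tRNAs. The sum of FPKM over its rows other than tRNAs ranged from 395 to 493 in replicate 1, whereas replicates 2 and 3 gave 31.7 to 54.8. In each genotype the division lay between replicates, and the ranges do not overlap.

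AT2G07739, annotated as a Ycf1 protein, had an FPKM of 142, 212, 193 and 219 in replicate 1 of the WT, *brat1*, *nrpe1* and *brat1nrpe1*. Its values in the other 8 libraries were between 1.41 and 3.73. AT2G07732, with a catalytic domain of the Rubisco large chain, had 32.8, 32.1, 29.6 and 35.1 in replicate 1, and its other 8 values ran from 1.05 to 5.38. The tRNA row AT2G07764 (tRNA-Asn) was listed at 775, 888, 431 and 861 in replicate 1 and at 0 in the other 8 libraries. Of 71 tested rows in the insertion other than tRNAs, 69 had a higher mean in replicate 1, with a median ratio of 4.44. Among the 214 tested members outside it, 119 were higher in replicate 1 and the median ratio was 1.02. Of the 21 tRNA rows, 11 were above 0 in replicate 1 libraries and 0 in the others.

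**Figure D2:**
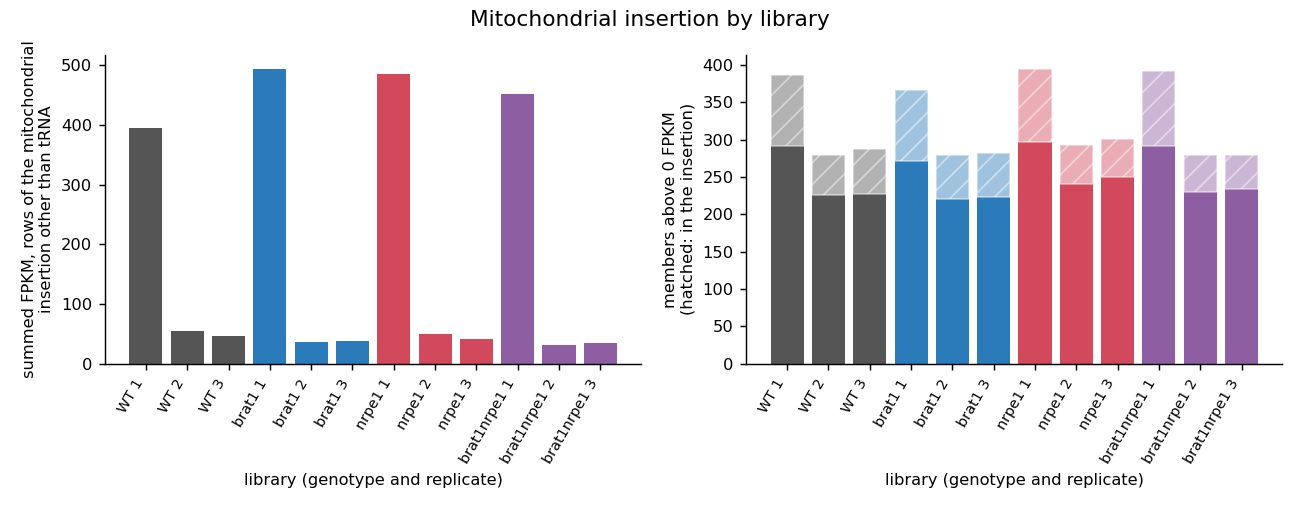
Left, the summed FPKM of the rows of the mitochondrial insertion other than tRNAs in each of the 12 libraries. Right, the number of members above 0 FPKM per library, with rows of the insertion hatched. Both axes start at 0. Replicate 1 of each genotype stands above its replicates 2 and 3, at 366 to 394 members above 0 against 279 to 301.

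To ask which members respond to the loss of either protein, all rows whose FPKM averaged at least 0.1 in the 12 libraries were tested together. Values were compared as log2(FPKM + 0.1) with limma, and differences below are log2 differences of this kind, in which changes of low rows come out too small. The threshold was that of the study for genes, an unadjusted P under 0.01 and a log2 difference past 1 in size, and adjusted p-values (Benjamini-Hochberg, over 22645 rows) are given beside it. Of the 1229 members, 296 (24.1%) were tested, against 67.9% of the other rows. The 933 members left untested were the 698 at 0 throughout and 235 with low values, none above 0.859 FPKM in any library. A member at 0 in the WT enters the test only if a mutant raises it, so the counts below hold for the tested members alone. Labels do not say whether replicates are separate cultures, and p-values then measure only the spread between these samples.

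In *brat1* alone, 1 member of the region passed the test. Between *brat1* and the WT, 0 of the 296 tested members were past the threshold as higher and 1 as lower, where 0.194% and 0.19% of all tested rows were. At an unadjusted p under 0.05 from limma, 5 members were higher and 6 lower (3.72% together). Of all tested rows 357 were higher and 310 lower by that limit (2.95%). The median log2 difference of the tested members was -0.01, beside 0.00 over all tested rows. The 1 member was AT2G07786, a pseudogene in the mitochondrial insertion with a near-identical copy over its whole length. Its FPKM was 6.12, 7.56 and 3.78 in the WT and 3.99, 0 and 0 in *brat1* (log2 difference -4.05, standard error 1.25, limma adjusted p = 1.0). The groups overlap, since replicate 1 of *brat1* lies inside the range of the WT. Without replicate 2 the difference was -2.94 and without replicate 3 it was -3.43, and neither passed the threshold. With the replicate number as a block, 3 members were lower in *brat1*, namely AT2G07786, AT2G04135 (-1.46, and -1.04 with its 2 models summed) and AT2G07738 (-1.20), the last of them in the insertion, and by that rule 0.344% of all tested rows were higher and 0.269% lower. None of these had an adjusted p under 0.05 with the block. Without the block 0 members had one, beside 0.00442% of all rows higher and 0.0397% lower. Without replicate 1 there were 2 lower and 2 higher members, the higher ones being AT2G10930 (2.01) and AT2G11270 (4.09), named after their values were seen. AT2G10930 had 0.873, 0 and 0 in the WT and 0.152, 0.165 and 0.513 in *brat1*. AT2G11270 had 0.803, 0 and 0 in the WT and 0.418, 1.10 and 2.31 in *brat1*. Both differences rest on WT values of 0, and in both rows the omitted replicate 1 was lower in *brat1*.

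Loss of NRPE1 raised a small set of members. Between *nrpe1* and the WT, 9 of the 296 tested members (3.04%) were higher and 2 were lower, while 0.477% of all tested rows were higher and 0.185% lower. With an adjusted p under 0.05 and no block there were 6 higher (2.03%) and 0 lower, beside 0.252% higher and 0.0795% lower of all rows. With the replicate block 9 were higher and 3 lower, beside 0.649% and 0.252%, and the lower ones included AT2G04480 and AT2G07738 (-1.28), the latter in the insertion. Of the 9, 5 are pseudogenes, 3 are protein-coding and 1 is another RNA, and 0 lie in the mitochondrial insertion. All 9 had groups that did not overlap. This adds no support, as they were chosen by difference and spread in the same libraries. The same goes for other members past the threshold whose groups are said not to overlap. The share of all tested rows with separate groups is not given here. A WT mean under 0.1 FPKM was found for 6 of the 9, which were therefore tested only because another genotype was higher. The median log2 difference of the 296 members was 0.01, as it was over all tested rows, so that the median member did not move. With a pseudocount of 1 in place of 0.1, only AT2G04460.1 and AT2G05540, the 2 of the 9 with the highest FPKM, passed as higher. Of the 752 pseudogene rows outside the insertion 34 were tested, of which 21 were higher and 13 lower in *nrpe1*, with a median of 0.12. Of all 22645 tested rows, 11930 were higher and 10638 lower. Some of the 34, such as AT2G10980 at 0 in all WT libraries, passed the filter only through genotypes without NRPE1. The lean upward is therefore partly built in.

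Among the 9, AT2G04460.1 had the largest log2 difference on the scale used, although with a pseudocount of 0.01 that of AT2G10980 was larger (6.18 against 3.35). It is the isoform row of a locus of 1 exon (positions 1547538 to 1548999, minus strand), which the study lists as a transposable element gene. The FPKM of AT2G04460.1 was 1.52, 2.36 and 2.77 in the WT, 1.64, 2.11 and 1.92 in *brat1*, 37.4, 16.3 and 17.6 in *nrpe1* and 18.8, 17.7 and 16.3 in *brat1nrpe1*. Every library without NRPE1 was above every library with it, and the highest was replicate 1 of *nrpe1*. The log2 difference between *nrpe1* and the WT was 3.30 (standard error 0.31, limma adjusted p = 0.00092), and with each replicate left out it stayed between 2.68 and 3.64. In linear values the mean of *nrpe1* was 10.7 times that of the WT.

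A further 3 of the 9 are listed by the study as transposable element genes. The study drew that list from these same libraries, so it is not independent evidence of their direction. AT2G10980, annotated with 4 exons from 4336273 to 4337467 on the plus strand, was listed at 0 in all WT libraries and at 0.729, 0.542 and 0.922 FPKM in *nrpe1* (log2 difference 3.03, standard error 0.35, limma adjusted p = 0.0046). AT2G04670, 1 exon of 4388 bases on the minus strand, had 0, 0.0491 and 0.0121 in the WT and 0.347, 1.12 and 1.20 in *nrpe1* (log2 difference 2.91, standard error 0.42, limma adjusted p = 0.019). Of these 3, AT2G04135 had the highest WT values, with 0.164, 0.345 and 0.440. In *nrpe1* its FPKM was 0.970, 1.56 and 2.35, which is higher by 2.03 on the log2 scale (standard error 0.55, limma adjusted p = 0.55, and 0.039 with the replicate block). Its call was lost without replicate 2, at 2.10, and without replicate 3, at 1.96.

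The protein-coding AT2G13770 and AT2G13760 are neighbours. AT2G13760 (positions 5734955 to 5735805, minus strand) and AT2G13770 (5736570 to 5737863, plus strand) start 764 bases apart and point away from each other. AT2G13770, annotated as a nuclease, was listed at 0 in all WT libraries and at 0.250, 0.694 and 0.354 FPKM in *nrpe1* (log2 difference 2.33, standard error 0.39, limma adjusted p = 0.042). AT2G13760, with the carboxy-terminal domain of no-apical-meristem proteins, was at 0 in the WT and *brat1* throughout and at 0.126, 0.424 and 0.577 in *nrpe1* (log2 difference 2.11, limma adjusted p = 0.27). Both members of the pair were thus off in the WT and above 0 in each *nrpe1* library. A near-identical copy covers 16.5% of AT2G13770 and none of AT2G13760. Without replicate 2 AT2G13760 did not pass, at 1.97, and without replicate 3 its mean fell under the filter.

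AT2G10990 lies close to AT2G10980, while AT2G10921 ends 33192 bases before it. Between AT2G10921 and AT2G10980 lies AT2G10940, whose log2 difference in *nrpe1* was 0.00. AT2G10921 is a non-coding RNA on the plus strand that overlaps AT2G10920 on the other strand by 203 bases, and reads of the overlap cannot be assigned without strand. Its FPKM was 0, 0.167 and 0 in the WT and 1.78, 0.711 and 0.872 in *nrpe1* (log2 difference 3.04, standard error 0.47, limma adjusted p = 0.029). AT2G10920 was listed at 0.402, 0 and 0 in the WT and at 1.79, 0 and 1.27 in *nrpe1*. The pseudogene AT2G10990 starts 1975 bases after AT2G10980 on the same strand, with 0.0310, 0.0894 and 0 in the WT and 0.242, 0.230 and 0.471 in *nrpe1* (log2 difference 1.57, limma adjusted p = 0.65). Its call was lost without replicate 1 and without replicate 2, at 1.66 and 1.95, and without replicate 3 its mean fell under the filter.

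AT2G05540 had the highest WT level of the 9. It belongs to a family of glycine-rich proteins, cell wall proteins in many plants, 7 of which lie here from AT2G05380 to AT2G05580. The FPKM of AT2G05540 was 33.9, 23.1 and 24.4 in the WT, 34.8, 38.5 and 35.5 in *brat1*, 60.4, 76.0 and 71.6 in *nrpe1* and 45.1, 40.5 and 39.9 in *brat1nrpe1*. The *nrpe1* libraries were above all others, and the log2 difference from the WT was 1.36 (standard error 0.15, limma adjusted p = 0.0025). *GRP9*, of the same family, had 356, 510 and 498 in the WT and 494, 726 and 763 in *nrpe1*, a log2 difference of 0.53 (limma adjusted p = 1.0, and 0.00013 with the replicate block), below the limit of 1. The other 5 of the 7 did not pass in any comparison. AT2G05530 and AT2G05580 were at or below 0.275 FPKM in every library.

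The fold limit left out AT2G07180, a protein kinase gene (positions 2980820 to 2983657) that was named after its values were seen. Its FPKM was 23.8, 23.0 and 21.4 in the WT and 36.7, 38.1 and 37.4 in *nrpe1* (log2 difference 0.72, limma adjusted p = 0.00092). The groups of AT2G07180 do not overlap, and its spread within a genotype was small. It was the 1 tested member with an adjusted p under 0.05 and a difference of less than 1. AT2G13190.1, another transposable element gene of the study's lists, had a mean too low to be tested. It was listed at 0 in all WT and *brat1* libraries, at 0.378, 0.350 and 0.214 in *nrpe1* and at 0.0286, 0.0642 and 0.140 in *brat1nrpe1*, and without the filter it passed in *nrpe1* (log2 difference 2.03, limma adjusted p = 0.0031).

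**Figure D3:**
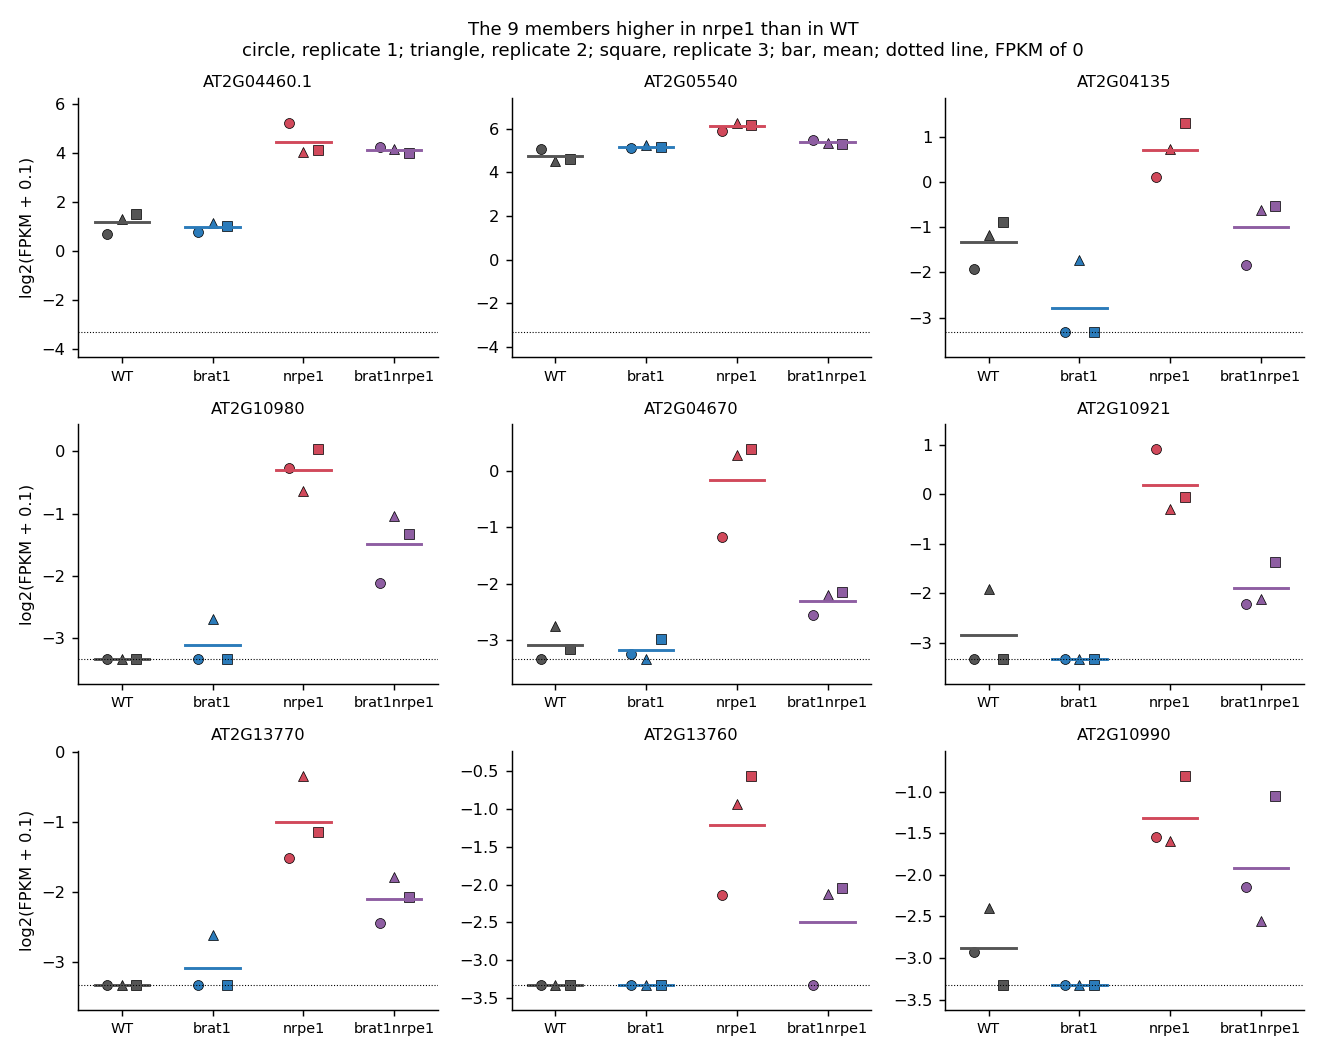
The 9 members past the threshold as higher in *nrpe1* than in the WT, as log2(FPKM + 0.1) in each library, with 1 panel per member. Points are libraries, bars are means of the 3 log2 values and the dotted line is an FPKM of 0. In all 9 panels the 3 *nrpe1* points lie above the 3 WT points. AT2G04460.1 stays high in *brat1nrpe1* (16.3 to 18.8 FPKM), while AT2G04670 is between 0.0700 and 0.127.

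Fewer members fell in *nrpe1*. AT2G13550, a protein-coding gene of unknown function, had 5.97, 7.70 and 7.20 FPKM in the WT and 2.38, 3.80 and 3.76 in *nrpe1* (log2 difference -1.07, standard error 0.22, limma adjusted p = 0.15, and 0.0012 with the replicate block). All *nrpe1* libraries were below all WT libraries. AT2G05914 is a non-coding RNA that overlaps the whole of AT2G05915 on the other strand. Its FPKM was 0.305, 0.407 and 0.255 in the WT and 0.113, 0.150 and 0 in *nrpe1* (log2 difference -1.26, limma adjusted p = 0.89), and with the block it no longer passed. Without replicate 1 there were 3 lower members. Neither call held when any 1 replicate was left out, with differences from -1.15 to -0.96 for AT2G13550 and from -1.42 to -0.97 for AT2G05914. Without replicate 1 AT2G13550 missed only the fold limit (-0.96, limma adjusted p = 0.0022).

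The galactolipid synthase gene *MGDC* (AT2G11810), which the study lists, differed between replicate 1 and the others. Its FPKM was 1.29, 7.80 and 7.57 in the WT, 0.894, 3.20 and 3.63 in *brat1*, and 2.64, 3.94 and 2.85 in *nrpe1*. Replicate 1 of the WT was below all *nrpe1* values, whereas replicates 2 and 3 were above them. The log2 difference of *MGDC* was -0.93 in *brat1* and -0.45 in *nrpe1*, with unadjusted p-values of 0.24 and 0.55 from limma. Within replicates 2 and 3 alone the differences were -1.15 and -1.17, and their adjusted p-values from limma were 0.0060 and 0.0027.

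The question of whether BRAT1 is needed for the rise in *nrpe1* is addressed by *brat1nrpe1* against *nrpe1*. In this comparison 0 of the 296 members were higher and 5 (1.69%) were lower, where 0.159% and 0.349% of all tested rows were. At an unadjusted p under 0.05 from limma, 7 members were higher and 16 lower (7.77% together). Of all tested rows 486 were higher and 477 lower by that limit (4.25%). Without the block no member had an adjusted p under 0.05, beside 0.0265% higher and 0.0883% lower of all rows. With the replicate block 0 were higher and 6 lower, beside 0.291% and 0.521%, among them AT2G07674 of the insertion (-1.46). Of these 6, AT2G04670, AT2G07741 and AT2G04135 had an adjusted p under 0.05 with the block. The median was -0.05 over the members and 0.00 over all tested rows. The 5 were AT2G04670, AT2G10921, AT2G10980, AT2G07042 and AT2G07741, of which the first 3 are also among the 9 raised in *nrpe1*. As both comparisons use the same *nrpe1* libraries, a high value there raises the first difference and lowers the second. Without replicate 1 there were 7 lower members and without replicate 2 or 3 there was 1.

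In *brat1nrpe1* the FPKM of AT2G04670 was 0.0700, 0.117 and 0.127, against 0.347 to 1.20 in *nrpe1* (log2 difference -2.14, standard error 0.42, limma adjusted p = 0.17, and 0.024 with the block). Its mean was 11.8% of that in *nrpe1*. AT2G10921 had 0.115, 0.130 and 0.285 in *brat1nrpe1* (log2 difference -2.09, standard error 0.47, limma adjusted p = 0.29), with a mean of 15.8% of that in *nrpe1*. For AT2G10980 the values were 0.132, 0.387 and 0.301 (log2 difference -1.20, standard error 0.35, limma adjusted p = 0.62), with a mean of 37.4%, and with the block it no longer passed. A second model of this locus, AT2G10980.1, was listed at 0.346 in replicate 1 of *brat1nrpe1* and at or below 0.00648 in *nrpe1*. With FPKM summed over both models, the mean in *brat1nrpe1* was 53.0% of that in *nrpe1* and the difference no longer passed (-0.76, limma adjusted p = 1.0). The groups of these 3 do not overlap. Without replicate 1 the differences were -2.50, -1.58 and -0.88, the last 2 not past the threshold. Without replicate 2 AT2G10921 still passed (-2.23), while AT2G04670 (-1.96) and AT2G10980 (-1.59) did not, and without replicate 3 none of the 3 passed (-1.94, -2.47 and -1.12 for AT2G04670, AT2G10921 and AT2G10980).

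The other 6 members raised in *nrpe1* were between 24.1% and 74.2% of their *nrpe1* mean in *brat1nrpe1*. AT2G04460.1 was at 74.2%, or -0.32 on the log2 scale (standard error 0.31, limma adjusted p = 1.0) and groups that overlap, and within replicates 2 and 3 alone the difference was 0.01. AT2G05540 was at 60.3% (-0.72, below the limit of 1), with groups that do not overlap. In the fit of FPKM summed per locus its limma adjusted p was 0.18, and 0.024 with the block. Its *brat1nrpe1* values of 39.9 to 45.1 lay nearer to those of *brat1* (34.8 to 38.5) than to those of *nrpe1* (60.4 to 76.0). AT2G10990 was at 61.5% (-0.60), with groups that overlap. AT2G13760 was at 24.1%, AT2G04135 at 27.1% and AT2G13770 at 31.9%, with log2 differences of -1.28, -1.70 and -1.10 and unadjusted P from 0.012 to 0.025 from limma, which did not pass. With the block AT2G04135 passed (limma adjusted p = 0.046). Summed over its 2 models AT2G04135 was at 24.7% and passed without the block as well (-1.87, limma adjusted p = 0.21). The mean in *brat1nrpe1* as a share of that in *nrpe1* thus ran from 11.8% in AT2G04670 to 74.2% in AT2G04460.1.

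AT2G07042 and AT2G07741 were lower in *brat1nrpe1* without being called in *nrpe1*. AT2G07042, a non-coding RNA of 3 exons, had 1.08, 0.657 and 1.23 FPKM in the WT, 1.31, 2.26 and 1.73 in *nrpe1* and 0.758, 0.815 and 0.807 in *brat1nrpe1* (log2 difference from *nrpe1* -1.03, limma adjusted p = 0.31). AT2G07741 carries a copy of the gene for subunit a of the mitochondrial ATP synthase and lies in the insertion, with a near-identical copy over its whole length. Its FPKM was 0.169, 0.563 and 0.703 in *nrpe1* and 0.0256, 0.115 and 0.0625 in *brat1nrpe1* (log2 difference -1.68, limma adjusted p = 0.38, and 0.036 with the block). In both, the groups do not overlap. Without replicate 2 the differences were -0.86 and -1.70, and without replicate 3 they were -1.04 and -1.36, none past the threshold.

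Loss of NRPE1 can also be read without BRAT1, from *brat1nrpe1* against *brat1*, which shares no library with *nrpe1* against the WT. Here 3 of the 296 members were higher and 2 were lower, beside 0.314% and 0.119% of all tested rows. With an adjusted p under 0.05 and no block there was 1 higher member, AT2G04460.1, beside 0.0927% of all rows, and 0 lower, beside 0.0309%. With the replicate block 3 were higher and 2 lower, beside 0.406% and 0.177%. Without replicate 1 there were 4 higher and 3 lower members, and without replicate 2 there was 1 of each. The FPKM of AT2G04460.1 rose from 1.64, 2.11 and 1.92 in *brat1* to 18.8, 17.7 and 16.3 in *brat1nrpe1* (log2 difference 3.16, standard error 0.31, limma adjusted p = 0.0022). AT2G04135 went from 7.14e-06, 0.203 and 1.55e-05 in *brat1* to 0.182, 0.545 and 0.593 (log2 difference 1.79, limma adjusted p = 1.0), with groups that overlap. Its second model, AT2G04135.1, was listed at 0.0770 and 0.0861 in the 2 *brat1* libraries where AT2G04135 was near 0. Summed over both models the values of *brat1* were 0.0770, 0.203 and 0.0861, and the difference of 1.22 did not pass. For AT2G10980 the change was from 0, 0.0548 and 0 to 0.132, 0.387 and 0.301 (log2 difference 1.62, limma adjusted p = 0.33), and with both models summed the difference was 2.06 (limma adjusted p = 0.038). The calls of AT2G04135 and AT2G10980 were lost without replicate 2, at 2.14 and 1.61, and without replicate 3, at 1.29 and 1.43.

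The members that fell in this comparison were AT2G13550 and AT2G07680. AT2G13550 had 6.05, 8.78 and 8.28 FPKM in *brat1* and 2.44, 2.65 and 3.34 in *brat1nrpe1* (log2 difference -1.42, standard error 0.22, limma adjusted p = 0.054, and 0.00030 with the block). It was thus past the threshold as lower with loss of NRPE1 in both backgrounds, and here the call held with each replicate left out. AT2G07680 (*ABCC13*) encodes a multidrug resistance-associated transporter of the ABC family and lies just beyond the insertion, from 3514668 to 3522658. It had 3.69, 5.40 and 5.68 in *brat1* and 1.29, 2.05 and 2.53 in *brat1nrpe1* (log2 difference -1.31, limma adjusted p = 0.20, and 0.0047 with the block). Against the WT (3.95, 6.11 and 5.77) its *nrpe1* values of 3.16, 2.98 and 3.41 gave a log2 difference of -0.69, below the limit. Without replicate 2 the call of AT2G07680 was lost, at -1.29.

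**Figure D4:**
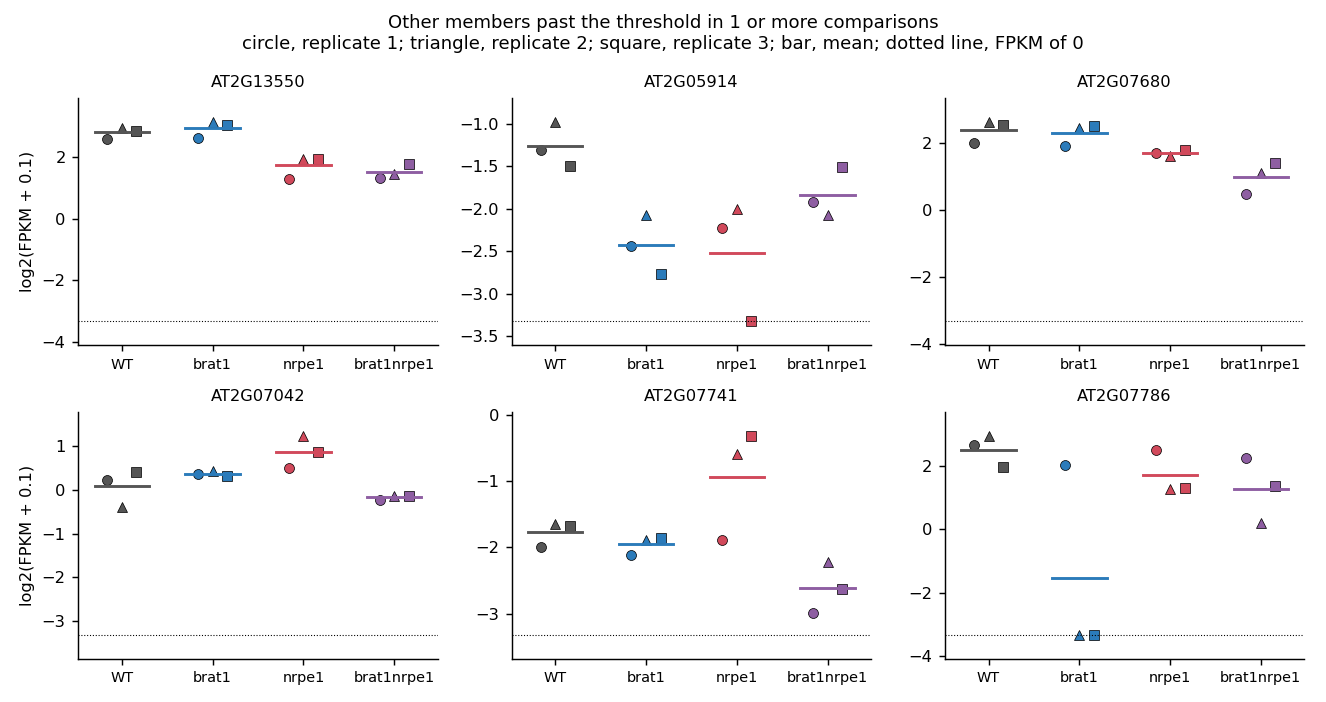
The 6 other members past the threshold in 1 or more comparisons, as log2(FPKM + 0.1) in each library, with 1 panel per member. Points are libraries, bars are means of the 3 log2 values and the dotted line is an FPKM of 0. AT2G13550 is low in both genotypes without NRPE1 (2.38 to 3.80 FPKM against 5.97 to 8.78), and in AT2G07786 only replicates 2 and 3 of *brat1* lie at 0.

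Over the 296 tested members, the log2 differences of these 2 comparisons had the same sign for 164 members, with a Pearson r of 0.25. This is a description over rows that share libraries, and rows are not independent replicates.

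**Figure D5:**
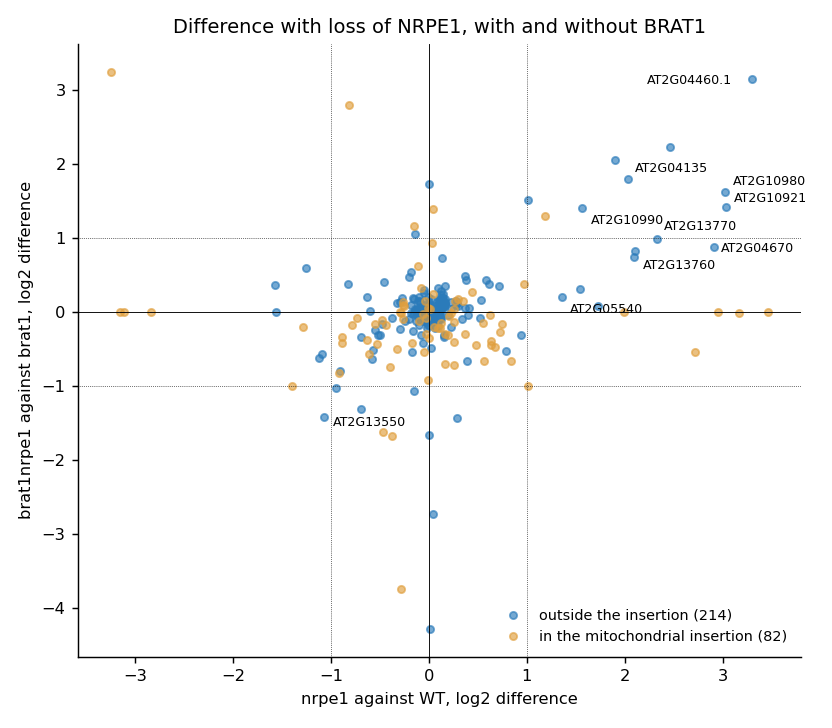
Each point is 1 of the 296 tested members, with the log2 difference between *nrpe1* and the WT on the horizontal axis and that between *brat1nrpe1* and *brat1* on the vertical axis. Dotted lines mark 1 and -1, and the 9 members higher in *nrpe1* and AT2G13550 are named. AT2G04460.1 is at 3.30 and 3.16, near the diagonal, while AT2G04670 is at 2.91 and below 1.

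Whether the effect of *brat1* differs between the 2 backgrounds was tested as the difference of the effects. It passed the threshold for 4 members, 1 above 0 and 3 below 0, beside 0.102% and 0.181% of all tested rows. None had an adjusted p under 0.05, beside 0.00442% above 0 and 0.0177% below. With the replicate block there were 1 above 0 and 4 below, beside 0.177% and 0.331%, the fourth below being AT2G07811 of the insertion (-1.03). At an unadjusted p under 0.05 from limma there were 1 above 0 and 11 below (4.05% together). Of all tested rows 123 were above 0 and 187 below by that limit (1.37%). The values below 0 were those of AT2G04670 (-2.03), AT2G07042 (-1.32) and AT2G05540 (-1.16), whose adjusted p-values from limma were 1.0, 1.0 and 0.42. AT2G04670 was at or below 0.0491 FPKM in the WT and 0.0268 in *brat1*, so a fall in *brat1* could hardly be measured. Its value mostly repeats its difference between *brat1nrpe1* and *nrpe1* (-2.14) and cannot tell whether the effect depends on the background. In AT2G05540 the *brat1* libraries were 34.8 to 38.5 FPKM against 23.1 to 33.9 in the WT, while *brat1nrpe1* was below *nrpe1*. The value above 0 was that of AT2G05914 (1.85, limma adjusted p = 1.0), which had 0.0847, 0.137 and 0.0473 in *brat1* and 0.164, 0.138 and 0.250 in *brat1nrpe1*. Without replicate 2 or without replicate 3, 0 members passed in this test, and without replicate 1 there were 8, with AT2G04670 at -2.31 and AT2G05540 at -1.51. Of these 8, AT2G05540 had a limma adjusted p of 8.1e-05. AT2G07786 (5.25), AT2G11270 (-4.09) and AT2G11810 (1.45) had limma adjusted p-values of 0.0023, 0.027 and 0.011.

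By the rule for likeness, the 3 members with the highest Pearson r to AT2G07786, the member of the largest difference among those past the threshold, over the 12 libraries were AT2G11140.1 (0.80), AT2G13290 (0.77) and AT2G07707 (0.71), of 295 members compared. With AT2G04460.1 as the reference, chosen after its values were seen, they were AT2G10980 (0.91), AT2G07180 (0.90) and the pseudogene AT2G13420 (0.85). For AT2G04670, also chosen afterwards, they were AT2G13760 (0.96), AT2G13770 (0.92) and AT2G07180 (0.90). These are descriptions over libraries that share genotypes and replicate numbers.

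Genes of the methylation machinery were looked at beside the members. Of 24 genes for RdDM, maintenance methylation and demethylation, all tested, 2 were lower in *nrpe1* than in the WT, *NRPE1* itself and *ROS1* (AT2G36490), a DNA glycosylase that removes methylated cytosine (log2 difference -2.86, limma adjusted p = 1.7e-05). The same 2 were lower in *brat1nrpe1* than in *brat1*, and 0 of the 24 were past the threshold as higher in any comparison. Between *brat1* and the WT and between *brat1nrpe1* and *nrpe1*, 0 of the 24 passed. At an unadjusted limma p under 0.05 there were 1 and 2, beside 2.95% and 4.25% of all tested rows. *ROS1* was among them in both, higher by 0.37 in *brat1* than in the WT. It was higher by 0.92 in *brat1nrpe1* than in *nrpe1* (limma adjusted p = 0.080), below the fold limit.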

How the data were processed

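The authors made poly-A libraries with the NEBNext Ultra kit, sequenced them on an Illumina HiSeq and aligned reads against TAIR10 (Tophat, at most 2 mismatches), of which uniquely mapped ones were kept. They deposited an FPKM per gene or isoform model in each of the 12 libraries, computed with Cufflinks 2.0.1. The submitters' processing notes name TopHat2 2.0.12. Strand handling and the normalization options are not given in the sources used here. Uniquely mapped reads lower the values of rows with copies, and FPKM carries neither counts nor depth, so no counting interval is given. Values of replicates are separate, and genotype and replicate number come from the labels.

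Rows were chosen by locus number and joined to TAIR10.1 for class, position and sequence (from RefSeq). All 356 pairs of a chromosome 2 region and a gene in the study's TAIR10 positions overlap the same gene in TAIR10.1. Copies and mitochondrial matches were found with BLAST 2.17.0. Rows with a mean FPKM of at least 0.1 were tested as log2(FPKM + 0.1) in limma 3.58.1 (R 4.3.3) with a trend, in 1 fit of the 4 genotype means, with two-sided p-values. On simulated data of 22645 rows for *brat1* against the WT, 96 of 100 rows changed by 3 and 80 of 100 changed by 1.5 (log2) were past the threshold. The simulated noise was independent between libraries.

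The members and gene lists were chosen with earlier results of these data known. Members named are those past the threshold (at most 15 per comparison and direction), the 10 highest, the glycine-rich and mitochondrial lists, and loci of the study's lists. Others are said to be named after their values were seen. The labels give the same replicate numbers in each genotype, and same-numbered libraries deviated together from their genotype means. The correlation of deviations was 0.593 to 0.840 over the 18 pairs with the same number (0.682 on average) and -0.271 on average over 36 pairs with different numbers, so results with the number as a block are given where they change a call. Alternatives were other pseudocounts and filters, the replicate block, rescaling, an adjusted p, other limits for on, and each replicate left out. The mean of replicates 2 and 3 as 1 sample, the members outside the insertion and FPKM summed over the models of each locus were chosen after seeing the data. Fold changes and p-values of the study were not used.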

Additional observations from a re-analysis of the deposited data

Results flagged for a closer look

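For 4 members the effect of *brat1* differed between the WT and the *nrpe1* background by the test of that difference. Its unadjusted P was under 0.01, and no adjusted p was under 0.05 with all 12 libraries. The difference between the effects was -2.03 for AT2G04670 on the log2 scale (limma adjusted p = 1.0, and 0.46 with the replicate block). It was -1.32 for AT2G07042 (limma adjusted p = 1.0, and 0.42 with the block), -1.16 for AT2G05540 (limma adjusted p = 0.42, and 0.15 with the block) and 1.85 for AT2G05914 (limma adjusted p = 1.0, and 0.49 with the block). None of the 4 passed without replicate 2 or without replicate 3. Without replicate 1 AT2G04670, AT2G07042 and AT2G05540 passed, the last with a limma adjusted p of 8.1e-05, and AT2G05914 did not. When single replicates were omitted the values ran from -2.31 to -1.70 for AT2G04670, from -1.56 to -0.88 for AT2G07042, from -1.51 to -0.92 for AT2G05540 and from 1.23 to 2.26 for AT2G05914. AT2G04670 was at or below 0.0491 FPKM in the WT and 0.0268 in *brat1*, so a fall in *brat1* could hardly be measured there. For AT2G04670 the test therefore cannot tell whether the effect of *brat1* depends on the background. Groups of 3 libraries were not tested for single outlying libraries.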

How the results depend on the processing

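Counts of members on kept within 1.5 times their values under each alternative tried. At a limit of 0.1 FPKM they were 211, 212, 215 and 201 for the WT, *brat1*, *nrpe1* and *brat1nrpe1*, at a limit of 1 they were 155, 151, 157 and 154, and by the mean of the 3 libraries 216, 212, 228 and 212. Rescaling to the same 75th percentile shifted libraries by -0.04 to 0.05 (log2) and changed no call. None of the 26 calls of single members changed sign under an alternative. With FPKM summed over the models of each locus, chosen after seeing the data, 24 of the 26 calls held, and those of AT2G10980 against *nrpe1* and AT2G04135 against *brat1* were lost.

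The counts past the threshold are small and moved with most settings. A pseudocount of 1 left 2 members higher and 0 lower in *nrpe1*, 0 lower in *brat1*, 0 lower in *brat1nrpe1* against *nrpe1*, 1 higher in *brat1nrpe1* against *brat1*, and 1 with a difference of the *brat1* effects. A pseudocount of 0.01 gave 1 lower in *nrpe1*, 3 lower in *brat1nrpe1* against *nrpe1*, 5 higher in *brat1nrpe1* against *brat1* and 2 with a difference of effects. Without the filter there were 1 higher in *brat1*, 11 higher in *nrpe1*, 8 lower in *brat1nrpe1* against *nrpe1*, 5 higher against *brat1* and 6 with a difference of effects. A mean FPKM of at least 1 left 2 higher and 1 lower in *nrpe1*, 1 lower against *nrpe1*, 1 higher against *brat1* and 2 with a difference of effects, as few members reach it.

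By adjusted p-values under 0.05 without the block, 0 members were lower in *brat1*, and 6 were higher and 0 lower in *nrpe1*. Against *nrpe1* 0 were lower, against *brat1* 1 was higher and 0 lower, and 0 had a difference of effects. With the block AT2G13550 was under 0.05 as lower in *nrpe1* and against *brat1*, and AT2G07680 as lower against *brat1*. AT2G04670, AT2G07741 and AT2G04135 were then under 0.05 as lower against *nrpe1*, and AT2G04135 as higher in *nrpe1*. With the mean of replicates 2 and 3 as 1 sample the counts were 0 lower in *brat1*, 7 higher and 0 lower in *nrpe1*, 1 lower against *nrpe1*, 1 higher and 1 lower against *brat1*, and 1 with a difference of effects. Outside the mitochondrial insertion they were 0 lower in *brat1*, 9 higher and 2 lower in *nrpe1*, 4 lower against *nrpe1*, 3 higher and 2 lower against *brat1*, and 4 with a difference of effects. The cause of these moves was not tested, beyond the smaller number of rows or samples that a setting leaves.

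With the replicate block, which uses the pairing by replicate number, 3 members were lower in *brat1*, 9 were higher and 3 lower in *nrpe1*, 6 were lower against *nrpe1*, 3 were higher and 2 lower against *brat1*, and 5 had a difference of effects. It kept 24 of the 26 calls of single members and lost those of AT2G05914 in *nrpe1* and AT2G10980 against *nrpe1*.

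With each replicate left out in turn, members higher in *brat1* numbered 0 to 2 and lower 0 to 2, those higher in *nrpe1* 6 to 10 and lower 0 to 3. Against *nrpe1*, 0 to 0 were higher and 1 to 7 lower in *brat1nrpe1*, against *brat1* 1 to 4 were higher and 1 to 3 lower, and 0 to 8 had a difference of effects. Members on were 178 to 180 in the WT, 177 to 179 in *brat1*, 182 to 185 in *nrpe1* and 171 to 177 in *brat1nrpe1*. Of the 26 calls, 20 held without replicate 1, 9 without replicate 2 and 9 of 24 without replicate 3. Most responding members are below 1 FPKM, where a value rests on few reads and the precision cannot be stated from FPKM.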
